A study of Mus musculus with 6 samples.

Results

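Aminoacyl-tRNA synthetases join each amino acid to its transfer RNA (tRNA). The genes described here were the 36 rows of the deposited table of 23420 gene symbols that carry the older symbols of these enzymes. They form a set of 20 genes of the cytosolic enzymes and a set of 16 of the mitochondrial enzymes, and all 36 were present and passed the filter on low counts. Polyadenylated RNA had been sequenced from pancreatic islets of C57BL/6J mice after 9 days of gastric infusion. In the group OIO (3 libraries), named after the obesity that overfeeding induces, the infusion was Ensure, a liquid diet, at 13 to 18.5 kcal per day. In the Control group (3 libraries) it was saline for the same 9 days. The labels give no age or sex and do not say whether a library came from 1 mouse or from several. The p-values are therefore set against variation among libraries, part or all of which may be technical.

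Charged tRNAs are the substrates of the ribosome, so the cytosolic enzymes serve all proteins made in the cytoplasm, which in beta cells include large amounts of proinsulin. The mitochondrial enzymes are encoded in the nucleus, imported, and serve the few proteins that mitochondria translate themselves. Synthetases fall into a class I and a class II by the fold of their catalytic domain, and several cytosolic ones are held together in a multi-synthetase complex. When uncharged tRNA activates the kinase GCN2, or when the endoplasmic reticulum is stressed, the transcription factor ATF4 is made and raises many, though not all, cytosolic synthetase genes.

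Totals ran from 20968058 counts in OIO library 1 to 48178375 in OIO library 2. Levels are CPM, counts scaled to a common library total, on library sizes scaled by trimmed mean of M-values, and differences are log2 fold changes of OIO over Control from edgeR's quasi-likelihood test, with a standard error (SE). A gene was called higher or lower at a Benjamini-Hochberg adjusted p under 0.05 over the 14903 genes tested. Member counts lay between 60 and 9195 reads per library. Markers of beta cells summed to 243469, 260623 and 266624 CPM in OIO libraries 1, 2 and 3. In Control libraries 1, 2 and 3 they summed to 235578, 188515 and 241486 CPM, below every OIO library. Their mean log2 CPM relative to the Control mean overlapped between groups (−0.08, 0.08 and −0.03 in OIO, 0.06, −0.08 and 0.02 in Control). Markers of acinar cells summed to between 3297 and 10460 CPM. In whole islets, fewer cells of a type and less RNA per cell cannot be told apart.

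Part of the cytosolic set carries, near its start sites, the short composite element that ATF4 binds together with C/EBP-family partners. The element was searched as TGATGCAA or TGATGAAA on both strands, from 250 bases before to 50 bases after each annotated start, in RefSeq promoter sequences of GRCm38.p6. A sequence was matched for 27 of the 36 members. The element was found in 5 of 13 cytosolic and in 0 of 14 mitochondrial members matched. Of all 27025 genes with a promoter sequence, 2.16% held it, and of the 10962 that were also tested here, 1.45% held it. A window is shown for each matched gene in which the element was found, and the values of these genes are set apart further on. Each reads 5′ to 3′ on the strand of its gene, and capitals mark the element.
Aars, chr8:111033839-111033870, plus strand: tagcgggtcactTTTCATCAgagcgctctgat
Gars, chr6:55037959-55037990, plus strand: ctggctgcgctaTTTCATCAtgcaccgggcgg
Iars, chr13:49682125-49682156, plus strand: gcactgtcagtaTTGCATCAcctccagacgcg
Tars, chr15:11399654-11399685, minus strand: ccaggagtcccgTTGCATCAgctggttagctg
Yars, chr4:129189894-129189925, plus strand: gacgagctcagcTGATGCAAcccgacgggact
All but the Yars window read the element as TTGCATCA or TTTCATCA, the reverse complements of the searched forms. A match in these letters describes the window and is not evidence of binding.

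Transcripts of the cytosolic enzymes were more abundant than those of the mitochondrial enzymes. Levels between genes are given as CPM per kilobase of the longest protein-coding transcript in GENCODE M21, with SD over 3 libraries. In Control islets the median was 22.4 CPM per kilobase over the 20 cytosolic genes and 4.46 over the 16 mitochondrial genes. Gars, the glycyl enzyme, had the highest level, at 83.0 ± 4.75 CPM per kilobase (n = 3) in Control and 82.2 ± 1.96 (n = 3) in OIO islets. Nars, for asparagine, followed with 47.9 ± 3.13 and Sars, for serine, with 44.5 ± 5.45 in Control islets, a gap smaller than the SD of Sars. Eprs, which encodes a fused enzyme for glutamate and proline, stood at 38.7 ± 1.16, Kars, for lysine, at 38.1 ± 0.93, and Dars, for aspartate, at 37.6 ± 1.72, 3 values that lay within their SD of each other. The lowest cytosolic level was that of Vars, the valyl enzyme, at 10.7 ± 0.36.

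For 13 amino acids both sets hold 1 gene each. The cytosolic gene had the higher level per kilobase in 12 of these 13 pairs in Control islets, with a median ratio of 3.53. Leucine was the exception, with 24.0 ± 0.71 CPM per kilobase for Lars and 35.5 ± 10.5 for Lars2. The smallest ratios among the 12 were 1.45 for arginine (Rars over Rars2) and 1.52 for isoleucine (Iars over Iars2). The largest was 47.3 for methionine, where Mars2 had 0.37 ± 0.10 CPM per kilobase over an annotated transcript of 11294 bases. Gars and Kars have no mitochondrial partner gene, since each encodes both the cytosolic and the mitochondrial form of its enzyme.

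**Figure D1:**
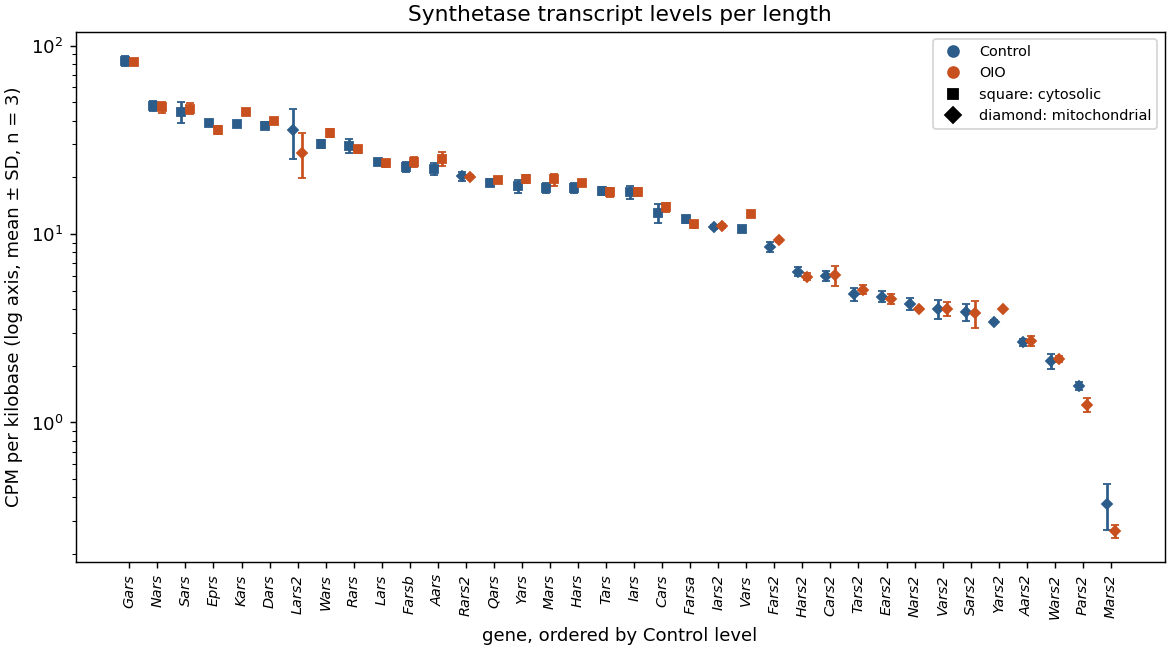
Level of each synthetase transcript in CPM per kilobase of the longest coding transcript (log axis, mean ± SD over 3 libraries) for Control and OIO islets, with squares for cytosolic and diamonds for mitochondrial enzymes. Gars is highest at 83.0 in Control islets and Mars2 lowest at 0.37, and Control and OIO symbols of most genes lie side by side.

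Overfeeding went with small differences in synthetase transcripts. Of the 20 cytosolic genes, 2 rose, Vars and Kars, none fell and 18 did not pass, against 4.54% of all tested genes called higher, 2.84% called lower and 7.37% called in either direction. Of the 16 mitochondrial genes, none rose, none fell and 16 did not pass in edgeR, and none was called in DESeq2 or limma voom. In edgeR 3 of the 16 had an unadjusted p under 0.05, the highest of these being 0.049 for Pars2. That p-value ranked 3465 among the 14903 genes tested, so p-values this low were common over all genes too. The median log2 fold change was 0.06 over the cytosolic set and 0.00 over the mitochondrial set, beside −0.01 over all genes tested. With libraries scaled by size alone the medians were −0.00, −0.07 and −0.08, so the sign of the cytosolic median depends on the scaling. With that scaling no cytosolic gene was called higher and 1, Eprs, was called lower.

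The 95% intervals give a range for each fold change, under the scaling used and without adjustment for many genes. The 95% interval of the fold change lay within 1.5-fold either way for 20 of 20 cytosolic and 13 of 16 mitochondrial genes. All OIO libraries were on 1 side of all Control libraries for 7 of the 36 members, 5 above and 2 below, against 29.3% of all genes tested. Among the 13 amino acid pairs the log2 fold changes of the cytosolic and the mitochondrial gene had the same sign in 9, though several lay near 0 and 8 of the 36 members change sign when libraries are scaled by size alone.

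**Figure D2:**
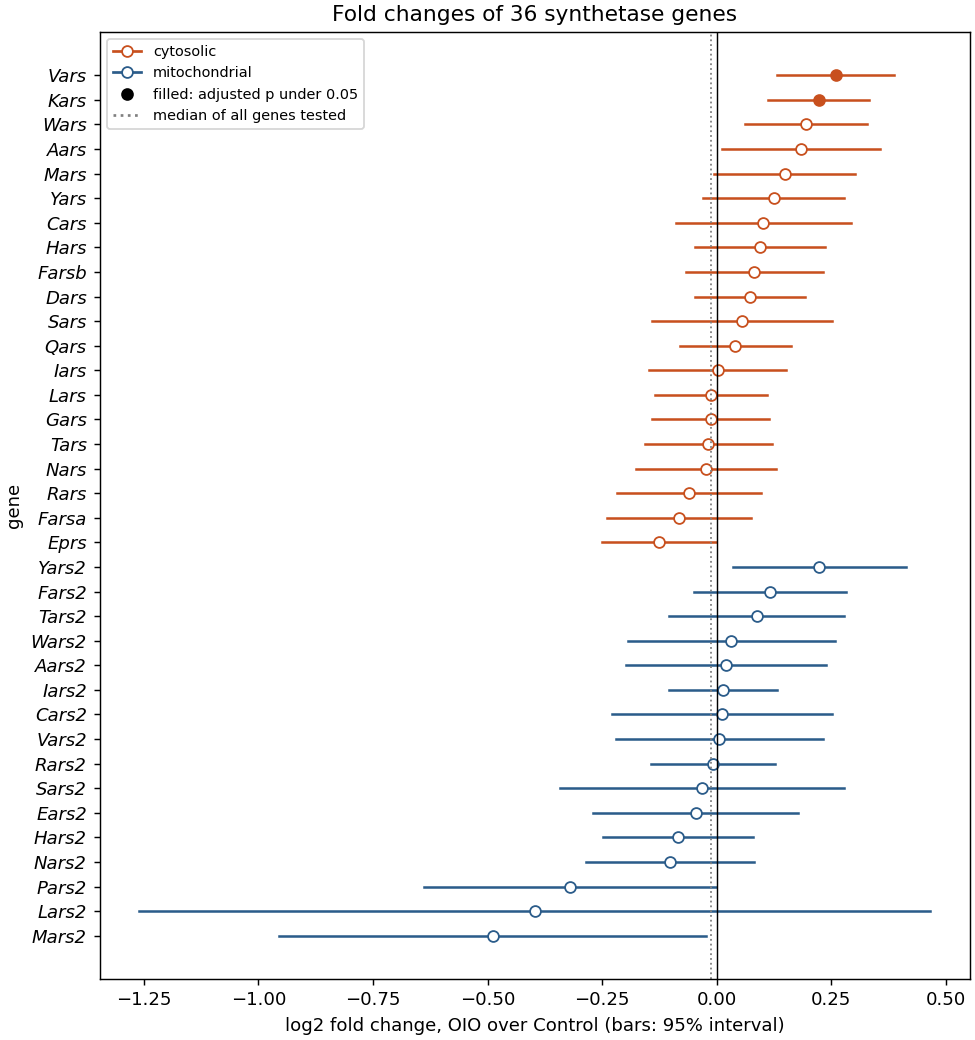
Log2 fold change of OIO over Control for each of the 36 genes with its 95% interval, by set, with filled symbols for an adjusted p under 0.05 and a dotted line at the median of all genes tested (−0.01). Vars and Kars are the filled symbols, and Mars2, Pars2 and Lars2 have the widest intervals.

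Vars encodes the valyl-tRNA synthetase, a class I enzyme found with elongation factor 1 rather than in the multi-synthetase complex, and lies on chromosome 17 from 35000987 to 35016322 (GRCm38, plus strand). It had 55.0, 51.0 and 52.9 CPM in OIO libraries 1, 2 and 3, and 44.1, 45.7 and 42.7 CPM in Control libraries 1, 2 and 3. The groups did not overlap. The rise was 0.26 on the log2 scale (SE 0.06, edgeR adjusted p = 0.024), a fold of 1.20 with a 95% interval of 1.10 to 1.31. The mitochondrial partner Vars2 stood at 17.8 ± 1.55 CPM in OIO and 17.8 ± 2.06 in Control islets (n = 3 each).

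Kars encodes the lysyl-tRNA synthetase, a class II enzyme of the multi-synthetase complex that also serves mitochondria, and lies on chromosome 8 from 111993443 to 112011323 (minus strand). It had 97.5, 97.3 and 97.3 CPM in the OIO libraries and 83.7, 81.3 and 85.4 CPM in the Control libraries. The OIO libraries were almost equal and lay above all Control libraries. The rise was 0.22 (SE 0.05, adjusted p = 0.024), a fold of 1.17 with an interval of 1.08 to 1.26.

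Both calls depended on the libraries used. With 1 library removed at a time, Vars passed in 1 of 6 fits, that without Control replicate 2 (adjusted p = 0.041), and had adjusted p between 0.053 and 0.078 in the other 5. Kars passed without Control replicate 1 (adjusted p = 0.046) or 3 (adjusted p = 0.036) and had adjusted p between 0.065 and 0.087 in the other 4. In the authors' deposited table Vars had a log2 fold change of 0.26 with an adjusted p of 0.040, and Kars 0.22 with 0.039. Of 7 duct markers, 1 (Krt7) was called higher, against 4.54% of all genes tested. By log2 fold change 4 lay above 0 and 3 below, from −0.57 to 0.71. The 7 summed to 489, 366 and 408 CPM in OIO and 313, 322 and 312 in Control libraries, while their mean log2 level relative to Control overlapped between groups (0.47, −0.01 and −0.00 in OIO, −0.06, 0.03 and 0.03 in Control). The 8 proliferation genes summed to 141, 160 and 153 CPM in OIO and 72.6, 32.1 and 59.5 in Control libraries. The part of beta, duct or dividing cells in the rise of Vars and Kars was not tested.

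Wars, the tryptophanyl enzyme, is known as a gene induced by interferon gamma. Its values were 103, 95.2 and 93.8 CPM in the OIO libraries and 89.7, 81.2 and 84.0 CPM in the Control libraries. The groups did not overlap. On the log2 scale the difference was 0.19 (SE 0.06), which missed the threshold in edgeR (adjusted p = 0.079) and met it in DESeq2 (adjusted p = 0.040). OIO library 1 was the highest for Wars. Over 20 genes of the interferon gamma response, none was called and 17 had a log2 fold change above 0, against 47.5% of all genes tested. The 20 summed to 904, 725 and 774 CPM in OIO and 710, 672 and 712 CPM in Control libraries, so OIO library 1 was the highest for that list too. The mean log2 CPM of these genes relative to the Control mean overlapped between groups. It was 0.47, 0.10 and 0.06 in OIO and −0.03, −0.08 and 0.10 in Control libraries. Their part in the Wars values was not tested.

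Aars, the alanyl enzyme, had 150, 130 and 154 CPM in the OIO libraries and 123, 138 and 120 CPM in the Control libraries. The groups overlapped, and the log2 fold change was 0.18 (SE 0.08, adjusted p = 0.19). Eprs was the cytosolic gene with the most negative value. It had 168, 171 and 184 CPM in the OIO libraries against 185, 196 and 189 CPM in the Control libraries. Its log2 fold change was −0.13 (SE 0.06, adjusted p = 0.21). The groups did not overlap, but the highest OIO and the lowest Control library were almost equal. Gars had 192, 194 and 201 CPM in the OIO and 193, 210 and 189 CPM in the Control libraries, and its log2 fold change of −0.01 (SE 0.06, adjusted p = 0.92) had a 95% interval of −0.14 to 0.11. The other 14 cytosolic genes lay between −0.08 for Farsa, a subunit of the phenylalanyl enzyme, and 0.15 for Mars, the methionyl enzyme. Farsb, which encodes the other subunit of that enzyme, was at 0.08.

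**Figure D3:**
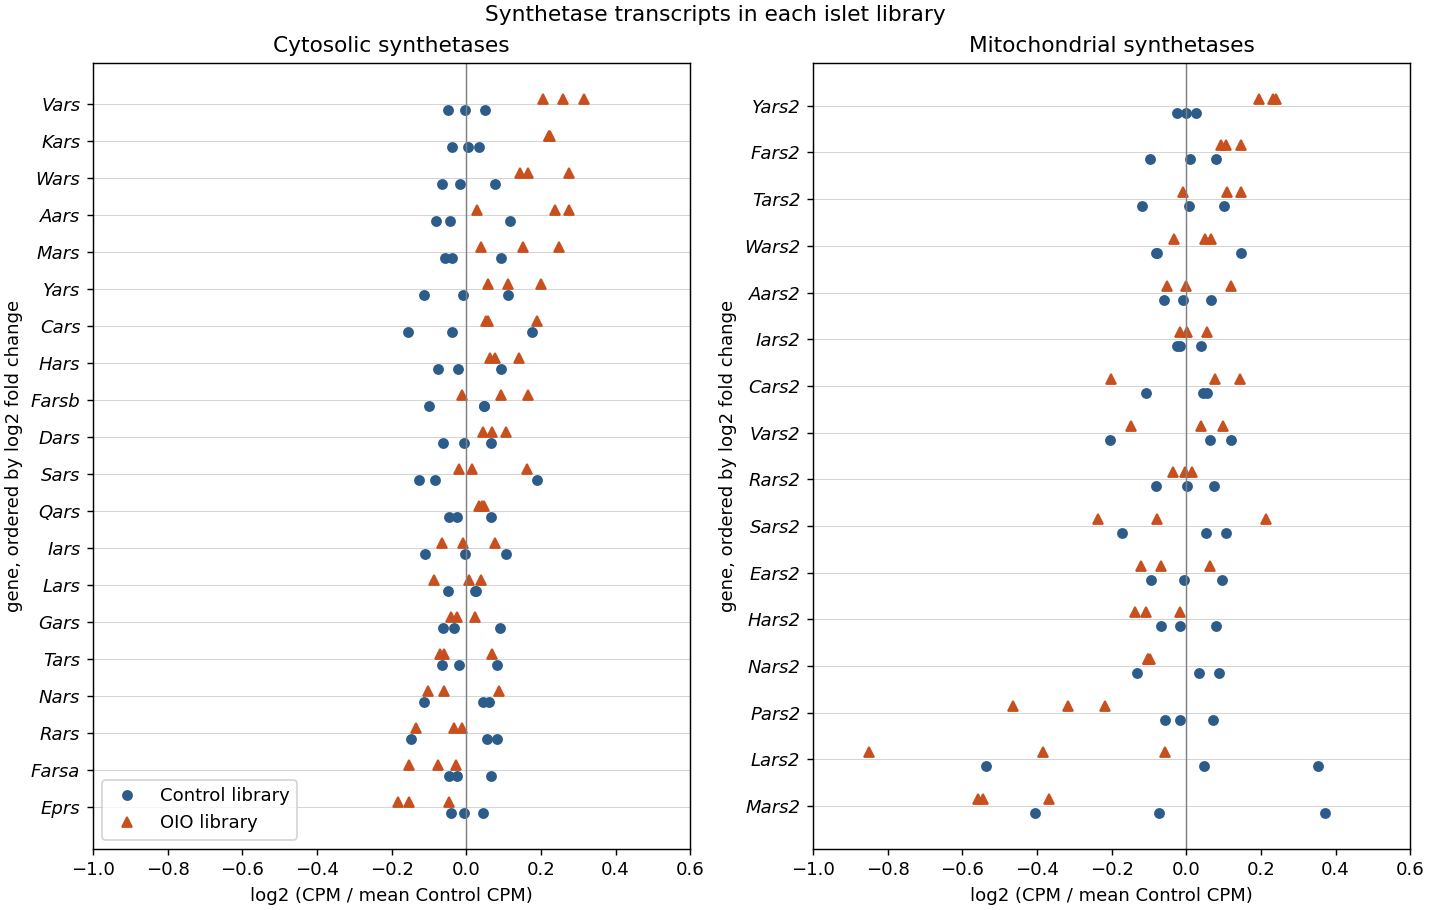
Each library's CPM of each gene, as log2 of its ratio to the mean Control CPM, for cytosolic (left) and mitochondrial (right) synthetases ordered by log2 fold change. OIO triangles lie above all Control circles at Vars, Kars, Wars, Yars2 and, by a narrow margin, Fars2, and below them at Pars2 and, by a narrow margin, Eprs, while Lars2 and Mars2 spread widely within groups.

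Among the mitochondrial genes the 4 of lowest p were Yars2, Mars2, Pars2 and Fars2. Yars2, the tyrosyl enzyme, had 11.02, 11.4 and 11.3 CPM in the OIO libraries and 9.79, 9.46 and 9.61 in the Control libraries. The groups were separated and tight, and the log2 difference was 0.22 (SE 0.09, adjusted p = 0.15). Fars2, the phenylalanyl enzyme, had 19.4, 19.6 and 20.1 CPM against 18.3, 19.2 and 17.0 CPM, also without overlap, at 0.12 (SE 0.07, adjusted p = 0.39). Neither passed.

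Mars2, the methionyl enzyme, and Pars2, the prolyl enzyme, were lower in OIO islets without passing. Mars2 had 2.87, 2.85 and 3.25 CPM in the OIO libraries and 3.17, 3.98 and 5.43 CPM in the Control libraries. One OIO library thus lay above the lowest Control library, and Control library 3 was the highest. Its log2 fold change was −0.49 (SE 0.21, adjusted p = 0.19). Pars2 had 3.45, 4.10 and 3.82 CPM against 4.998, 4.57 and 4.71 CPM, without overlap, at −0.32 (SE 0.14, adjusted p = 0.21). These were the lowest-expressed members, with counts from 60 reads upwards for Mars2 and 72 upwards for Pars2.

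Lars2, the mitochondrial leucyl enzyme, was singled out after its values were seen. It had 133, 106 and 76.7 CPM in the OIO libraries and 177, 143 and 95.5 CPM in the Control libraries. The groups overlapped, and libraries within a group were far apart. The log2 fold change of −0.40 (SE 0.32, adjusted p = 0.54) had a 95% interval of −1.26 to 0.47, so differences within that range could not be resolved. The remaining 11 mitochondrial genes lay between −0.10 for Nars2 and 0.09 for Tars2.

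The 2 calls fell in different structural classes. With Eprs counted as class I for its glutamyl part, 1 of 10 class I genes (Vars) and 1 of 10 class II genes (Kars) of the cytosolic set rose, with median log2 fold changes of 0.07 and 0.06. In the multi-synthetase complex 1 of 8 enzyme genes (Kars) rose, with a median of 0.02, and among the free enzymes 1 of 12 (Vars), with a median of 0.09. These counts stand beside 4.54% of all genes tested called higher. The 3 scaffold genes of the complex, Aimp1, Aimp2 and Eef1e1, did not pass and lay between −0.11 and 0.09.

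The cytosolic genes that ATF4 is known to raise in other mouse cells were Aars, Cars, Eprs, Gars, Iars, Lars, Mars, Nars, Sars, Tars, Wars and Yars. None of these 12 rose and none fell, with a median log2 fold change of 0.03. Of all genes tested, 4.54% were called higher and 2.84% lower. The 8 cytosolic genes outside that list held both calls and had a median of 0.08. The difference between the 12 and the 8 was not tested. Among the 13 cytosolic genes searched, the element shown above was found in 5, Aars, Gars, Iars, Tars and Yars, which all belong to the 12. Their log2 fold changes were 0.18, −0.01, 0.00, −0.02 and 0.12. The remaining cytosolic genes had no matched sequence, so whether they hold the element is not known here. Atf4 itself had 206, 218 and 262 CPM in the OIO and 235, 265 and 233 CPM in the Control libraries, and the log2 difference was −0.10 (SE 0.09, adjusted p = 0.59).

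Most of these 12 genes shared an order of the libraries within each group. For 11 of the 12, all but Wars, the highest Control value was in Control library 2 and the highest OIO value in OIO library 3. This order was seen in 10.6% of all genes tested, in 0 of the 8 other cytosolic genes and in 2 of 16 mitochondrial genes. The pattern was noticed after the values were seen and was not tested. Sars, the seryl enzyme, had 145, 181 and 150 CPM in the Control libraries and 161, 157 and 178 CPM in the OIO libraries. Cars, the cysteinyl enzyme, had 40.6, 47.1 and 37.4 CPM and 43.4, 43.3 and 47.6 CPM in the same order. For Sars, Control library 2 was above every OIO library, and for Cars, OIO library 3 was above every Control library. Other genes of the 11 had narrow margins. Lars had 97.2 CPM in Control library 2 and 97.1 CPM in Control library 3, and Nars had 137 and 136 CPM.

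Averaged over the 12 genes, log2 CPM relative to the Control mean was −0.05, 0.09 and −0.04 in Control libraries 1, 2 and 3 and 0.04, −0.00 and 0.12 in OIO libraries 1, 2 and 3. The groups overlapped. Averaged over the 8 other cytosolic genes it was −0.02, −0.01 and 0.03 in Control and 0.10, 0.05 and 0.10 in OIO libraries. Those 8 include Vars and Kars, the only 2 of them separated by group. Over the other 6 it was −0.03, −0.02 and 0.04 in Control and 0.04, −0.01 and 0.05 in OIO libraries, and the groups overlapped. With another scaling the order was seen in 10 of the 12 (relative log expression, where 10.9% of all genes and 1 of the 8 had it) and in 9 of the 12 (library size alone, 8.39% of all genes).

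The same order held for Atf4 and for 14 of 30 tested ATF4 targets that are not synthetases. Among them, Chac1, which degrades glutathione, had 8.86, 13.3 and 8.82 CPM in the Control and 13.2, 12.8 and 17.0 CPM in the OIO libraries. Mthfd2, of mitochondrial folate metabolism, had 32.8, 46.4 and 34.4 CPM and 44.3, 41.6 and 49.4 CPM. Markers of alpha cells moved with the order as well. Gcg, Irx2 and Ttr, 3 of 5 alpha markers, were highest in the same libraries, and the 5 summed to 43717, 79708 and 49456 CPM in the Control and 54109, 51742 and 61904 CPM in the OIO libraries. The order was seen in none of 9 beta cell and 14 acinar markers. The part of cell composition in this variation was not tested.

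**Figure D4:**
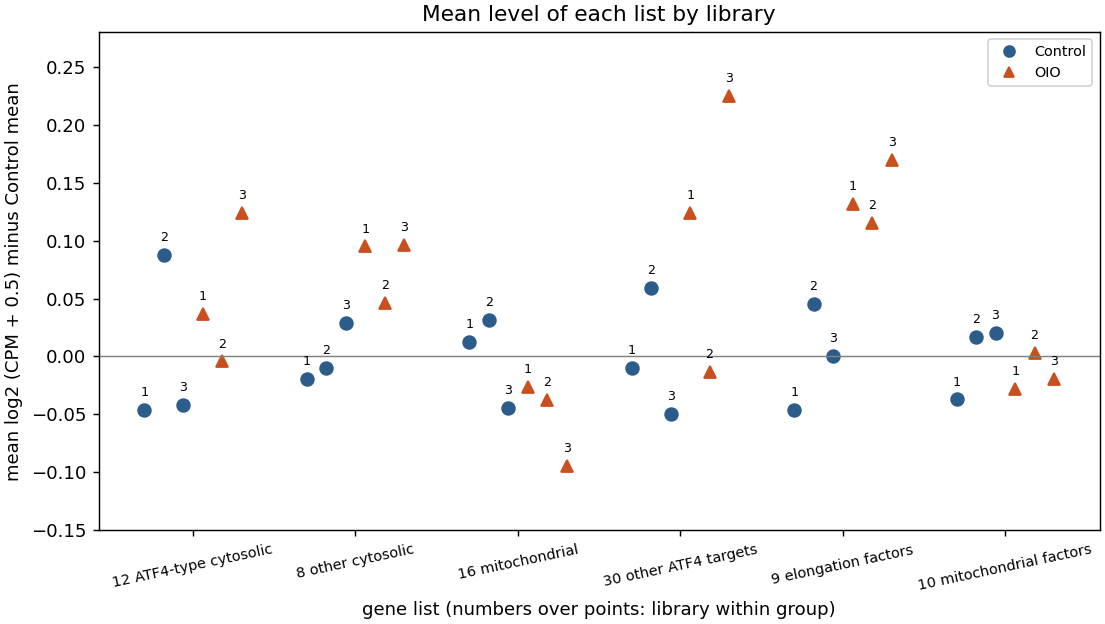
Mean over the genes of each list of log2 (CPM + 0.5) minus the Control mean, 1 symbol per library with its number. Control library 2 and OIO library 3 are highest within their groups for the 12 ATF4-type synthetases (0.09 and 0.12). The mean of the 8 other cytosolic genes is higher in OIO libraries, but without Vars and Kars the groups overlap.

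Genes that work beside the synthetases were read from lists of related steps. Of 9 cytosolic elongation factors, which bring charged tRNA to the ribosome and move it along, 2 were called higher and 0 lower. Among all genes tested, 4.54% were called higher and 2.84% lower. The median log2 fold change of the 9 was 0.19. Eef1d, a subunit of elongation factor 1, had 81.0, 78.6 and 80.2 CPM in the OIO and 63.0, 70.3 and 63.6 CPM in the Control libraries, a rise of 0.28 (SE 0.06, adjusted p = 0.018). Eif5a, which aids elongation at difficult peptide bonds, rose by 0.22 (SE 0.06, adjusted p = 0.048). Leaving out any 1 library ended the call of Eif5a (adjusted p 0.055 to 0.14). The call of Eef1d ended when any OIO library was left out (adjusted p 0.058, 0.056 and 0.056). With libraries scaled by size alone neither passed (adjusted p 0.053 for Eef1d and 0.090 for Eif5a).

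Of 10 mitochondrial translation factors none was called, also at an unadjusted p under 0.05, and the median was −0.01. None of the 4 genes of the amidotransferase and formylation steps (Qrsl1, Gatb, Gatc and Mtfmt) and none of 6 genes of editing and selenocysteine charging passed. Of 22 genes of tRNA processing and export, 1 fell, Trmt10c, a subunit of mitochondrial RNase P, at −0.34 (SE 0.08, adjusted p = 0.026), from 29.1 to 23.0 CPM. Of 23 genes of tRNA transcription by RNA polymerase III, 1 fell, Gtf3c4, a subunit of the factor TFIIIC, at −0.29 (SE 0.06, adjusted p = 0.020), from 64.7 to 53.1 CPM. For both lists this is near the 2.84% of all genes tested that were called lower. Of the 6 fits with 1 library removed, Trmt10c passed only in that without Control replicate 1, and its adjusted p reached 0.12. The call of Gtf3c4 ended when any OIO library was removed, with adjusted p up to 0.087.

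Of 15 genes of GCN2 and the integrated stress response, 2 fell, none rose and the median was −0.05, against 2.84% of all genes tested called lower. Impact, an inhibitor of GCN2 activation, had 64.6, 66.4 and 69.2 CPM in the OIO and 82.8, 87.2 and 82.6 CPM in the Control libraries, a difference of −0.34 (SE 0.05, adjusted p = 0.0064). Its groups were clearly separated. Ppp1r15a, the stress-induced phosphatase subunit that reverses the phosphorylation of eIF2, was at −0.41 (SE 0.07, adjusted p = 0.0062), from 42.8 to 32.3 CPM. It was counted in this list and left out of the ATF4 targets below, so their count of lower calls does not include it.

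Of 30 tested ATF4 targets that are not synthetases, 2 were called higher and 0 lower, against 4.54% and 2.84% of all genes tested. The median was 0.13 beside −0.01 over all genes, and 20 lay above 0 and 10 below, from −1.17 to 0.98. Averaged over the list, log2 CPM relative to the Control mean was 0.12, −0.01 and 0.22 in OIO libraries. It was −0.01, 0.06 and −0.05 in Control libraries, and the groups overlapped. Psat1, of serine synthesis, had 20.2, 18.2 and 22.7 CPM in the OIO and 10.5, 10.7 and 9.89 CPM in the Control libraries, a rise of 0.98 (SE 0.10, adjusted p = 5.6e-04). Pycr1, of proline synthesis, had a mean of 19.5 CPM in Control and 28.2 CPM in OIO islets, a rise of 0.54 (SE 0.10, adjusted p = 0.014). Its call ended with OIO replicate 2 or 3 removed (adjusted p 0.053 and 0.051). Of the enzymes that charge these amino acids, Sars was at 0.06 (SE 0.09, adjusted p = 0.76) and Eprs at −0.13. The difference between Psat1 and Sars was not tested.

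**Figure D5:**
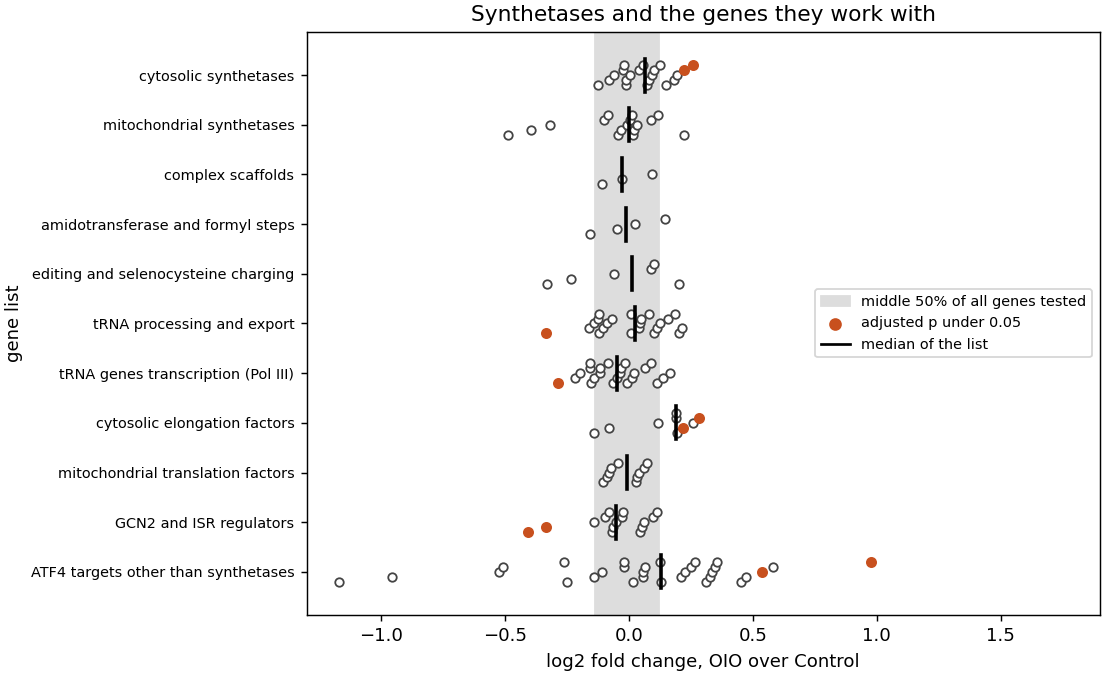
Log2 fold change of OIO over Control for every tested gene of each list, with filled points for an adjusted p under 0.05, a bar at the median and the middle 50% of all genes shaded. Most synthetases lie in or near the shaded band, and the elongation factors have a median of 0.19. The largest rise is Psat1 at 0.98, and the lowest value, −1.17, belongs to a gene of the same list that was not called.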

How the data were processed

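The authors deposited whole-number counts per gene symbol for 6 libraries, without normalization. Per the submitters' processing notes, bcl2fastq, kallisto and limma were used, on GRCm38 and mm10, and their roles and versions are not given in the sources used here. Whether the library kit marked strand is not stated. The authors also deposited a comparison table, which per gene lists log2 values (fold change and mean expression), scores, and a raw and an adjusted p-value, and whose model and direction are not stated in it. Its log2 fold change had the sign found here for 36 of 36 members.

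Library codes of the table carry an extra 0 against the labels and were matched by number. Replicates were numbered in accession order. The test on these counts was that of edgeR 4.0.16 (R 4.3.3), after filterByExpr, TMM scaling and a robust quasi-likelihood fit with group as the only term. P-values were adjusted over 14903 genes. Each SE was taken from the log2 fold change and the F statistic, and 95% intervals use the fit's total degrees of freedom, without adjustment for many genes. With 3 libraries a group, the smallest 2-sided exact permutation p is 0.1, and genes were therefore read from the model. DESeq2 1.42.0, limma voom 3.58.1, other scalings, filters and left-out libraries were alternatives. The test was checked on simulated counts.

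The members and lists were chosen with earlier results of these data known, and no list was tested. The ATF4 list of synthetases came from general knowledge. The promoter element was chosen after member values were seen, and other motifs that were looked at are not reported. Named genes were the called members, the 4 of lowest p in each set, Gars, Kars, Eprs, Wars and Atf4, and up to 4 called genes of each related list. Sars, Cars, Lars2, Chac1 and Mthfd2 were added after their values were seen. Levels per kilobase use annotated rather than expressed transcript lengths. Gatb and 3 other listed genes were found under older symbols. One promoter window and one further gene are not reported here.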

Additional observations from a re-analysis of the deposited data

How the results depend on the processing

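No paired analysis was possible because the labels give no numbers shared between the groups. Over 16 alternatives, 559 of 576 recomputed member values kept their side of the threshold, 15 lost a call (Vars and Kars) and 2 gained 1, which were Wars in DESeq2 and Eprs with libraries scaled by size alone (log2 fold change −0.19, adjusted p = 0.047). No called member changed sign, but 15 of the 36 did so under some alternative, 8 of them with libraries scaled by size alone. Scaling by size alone moved the medians of the cytosolic and mitochondrial sets to −0.00229 and −0.0675, the number of higher and lower cytosolic calls to 0 and 1, the related translation lists to 2 higher and 7 lower (from 4 and 4), and all genes to 1113 lower against 423, with 498 higher against 676. DESeq2 called 9 genes of the related lists higher. Fits that left out 1 library gave 0 to 1 higher cytosolic calls, 1 to 8 higher and 2 to 4 lower related genes, and 336 to 560 higher and 112 to 303 lower genes in all. Without OIO replicate 1 and Control replicate 3 together, added after seeing the data, no cytosolic gene was called. That fit called 2 related genes higher and 2 lower, and 457 higher and 142 lower genes in all. Without OIO replicate 3 and Control replicate 2 together, also added, no cytosolic gene, 1 related gene higher and 1 lower, and 168 higher and 79 lower genes in all were called. These 2 fits rest on 2 libraries per group. Counting error limits Mars2 and Pars2 most, at 60 and 72 reads in the shallowest library.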

Other observations

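Several synthetase genes overlap a coding gene on the opposite strand in GENCODE M21, and without a stated strand their reads cannot be told apart from the partner's where they overlap. Hars and Hars2 overlap each other at their start sites on chromosome 18, with log2 fold changes of 0.09 (SE 0.06) and −0.08 (SE 0.07). Mars overlaps Ddit3, the gene of the stress factor CHOP, which was at −0.11 (SE 0.16, adjusted p = 0.74) against 0.15 for Mars. Yars overlaps C77080 (0.14, SE 0.09, adjusted p = 0.42). Wars overlaps Wdr25 (0.07, SE 0.10, adjusted p = 0.75). Vars and Kars overlap no coding gene. Xpot, the export factor of tRNA and a member of both the processing list and the ATF4 list, was at −0.14 (SE 0.05, adjusted p = 0.12), with 83.1, 88.0 and 85.9 CPM in the OIO and 94.4, 96.1 and 93.1 CPM in the Control libraries.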
